A study of Rattus norvegicus with 6 samples.

Results

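The 49 genes described here encode the ligands, receptors, Smads, extracellular antagonists and target genes of transforming growth factor (TGF)-β, activin and bone morphogenetic protein (BMP) signaling. They were taken by exact gene symbol from a table of 34106 genes measured by bulk RNA-seq in the inferior alveolar nerve (IAN) of the rat, which carries sensation from the lower teeth and lip, taken on day 14 after the operation. The samples were 3 injured nerves (IANX) and 3 nerves from sham-operated rats (Sham), numbered 1 to 3 in each group. In the IANX rats, the IAN and the mental nerve were cut with a gap of 1 mm between the stumps and were not sutured, after removal of the cortical bone over the nerve. In the Sham rats, the skin of the left cheek and the masseter muscle were cut and the nerves were left intact, and the methods do not state whether the bone was opened. All rats were male Sprague–Dawley rats bought at 6 to 7 weeks of age. The samples are described as biological replicates. All 49 symbols were found, in 50 entries, since Tgfbr1 has an additional entry with a count of 0 in every sample. A filter on low counts kept 46 of the members for testing, and Gdf5, Bmpr1b and Smad9 fell below it.

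TGF-β, activins and BMPs are secreted dimers that bring together type II and type I receptor kinases on the cell surface. The type I receptor then phosphorylates Smad proteins, Smad2 and Smad3 for TGF-β and activin and Smad1, Smad5 and Smad9 for BMPs, which enter the nucleus with Smad4 and act on transcription. TGF-β is secreted in a latent form held in the matrix by latent TGF-β binding proteins. Secreted proteins such as noggin and gremlin bind BMPs, follistatin binds activin, and Smad6, Smad7 and the decoy receptor BAMBI are induced by the pathway and dampen it. In injured peripheral nerve, TGF-β is known to act on Schwann cells, fibroblasts and macrophages, and in the jaw BMPs are known for their part in tooth and bone formation.

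The samples held 13988750 to 16440720 counts in IANX and 14630127 to 17105402 counts in Sham. Levels are given in CPM, the counts of a gene per 1e6 counts of its library, scaled by edgeR's TMM factors, which correct for differences in composition between libraries. IANX was set against Sham in the quasi-likelihood test of edgeR, two-sided and over 15374 genes, and a gene passed at a Benjamini-Hochberg adjusted p under 0.05. The SE beside each fold change is its standard error on the log2 scale. The 10 Schwann cell and myelin markers, which define the tissue, were detected in every group with a sum of 3977, 14850.4 and 8908 CPM in IANX 1, 2 and 3, against 184286, 227704 and 173759 CPM in Sham 1, 2 and 3, and 9 of them were lower in IANX. Of the 3 IANX samples, IANX 1 and IANX 3 stood apart by their content of enamel transcripts. The 9 odontoblast and ameloblast markers had a sum of 56082, 1950.1 and 60764 CPM in IANX 1, 2 and 3, against 148, 876 and 129 CPM in Sham 1, 2 and 3. Of the 7 that were tested, 6 were higher in IANX, and none was at 0 in either group. The enamel genes Amelx and Ambn carried the sums. Of the dentin genes, Dspp was at 1033, 228 and 217 CPM in IANX, against 4.90, 12.7 and 2.36 CPM in Sham, with IANX 2 and IANX 3 nearly level. Dmp1 was at 164, 129 and 54.0 CPM in IANX, against 22.4, 16.2 and 19.6 CPM in Sham, with IANX 3 lowest of the IANX samples. The sum over 10 macrophage markers was 354, 794 and 323 CPM in IANX 1, 2 and 3, against 224, 194 and 228 CPM in Sham 1, 2 and 3, with 4 of them higher. In whole nerve, fewer cells of a type and less RNA per cell cannot be told apart.

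Of the 46 tested members, 23 were higher in IANX than in Sham, and 3 were lower (edgeR, n = 3 per group). Over all 15374 tested genes, 17.8% were higher and 16.6% lower, 34.4% in all. The median log2 fold change was 0.81 over the members and 0.08 over all tested genes. By role, 9 of 14 tested ligand genes were higher and none was called lower, with a median of 2.14. Of 11 tested receptor genes, 2 were higher and 2 lower, with a median of 0.25. Of 7 tested Smad genes, 5 were higher and 1 was lower, with a median of 0.92. Of the 6 antagonist genes, 3 were higher, with a median of 1.51, and of the 4 target genes 2 were higher, with a median of 0.93. The 3 lower members were Tgfbr3, Acvrl1 and Smad2. The groups did not overlap for 27 of the 46 members, 23 with IANX above Sham and 4 with IANX below, against 27.0% and 24.5% of all tested genes. With library sizes as the only scaling, 31 members were higher and 0 lower, and all tested genes then had a median of 0.53. At an unadjusted p under 0.05, 0 members were lower with that scaling, while DESeq2 called 24 higher and 3 lower. Without Sham 2 or Sham 3, 10 and 13 members were higher, and without IANX 3, Sham 2 or Sham 3, 1, 1 and 0 were lower (3 at an unadjusted p under 0.05 without Sham 3).

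**Figure D1:**
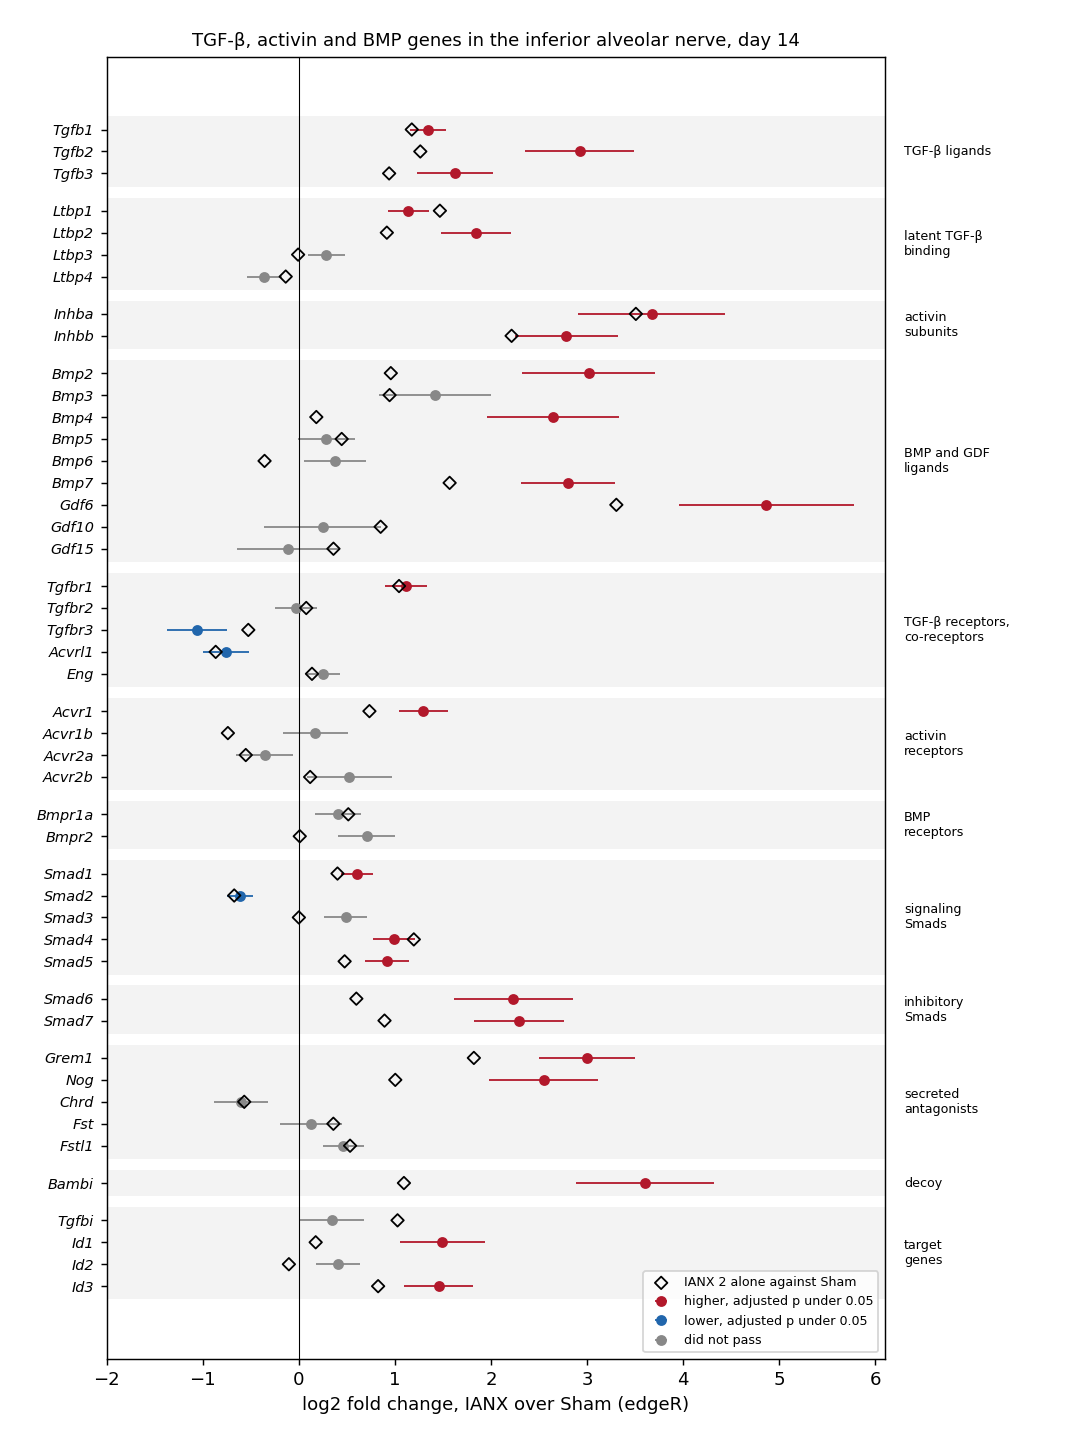
Log2 fold change of IANX over Sham (x axis) for the 46 tested members, grouped by role down the page. Circles with bars are the edgeR estimate with its standard error over 3 IANX and 3 Sham samples, colored by whether the gene passed an adjusted p of 0.05, and open diamonds are the estimate for IANX 2 alone against the same 3 Sham samples. Most red circles lie among the ligands and inhibitors, and the diamonds of Bmp4, Smad6, Bambi and Id1 lie far to the left of their circles.

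All 3 TGF-β ligand genes rose. Tgfb1 (ENSRNOG00000020652, chromosome 1, 82480195 to 82497199 of rn6), the isoform of immune cells and wounds, was at 133, 100.4 and 108 CPM in IANX 1, 2 and 3, against 40.1, 53.8 and 40.2 CPM in Sham 1, 2 and 3. Every IANX sample was thus above the highest Sham sample, with little spread in either group, and the gene rose with a log2 fold change of 1.34 (SE 0.19, edgeR adjusted p = 0.00266). Tgfb3 (ENSRNOG00000009867, chromosome 6, 109913757 to 109935533), an isoform expressed in mesenchyme, was at 225, 81.9 and 90.4 CPM in IANX 1, 2 and 3, against 40.2, 37.6 and 50.7 CPM in Sham 1, 2 and 3, with a log2 fold change of 1.63 (SE 0.40, edgeR adjusted p = 0.0188). Its increase was uneven, since IANX 1 was at 5.25 times the Sham mean and IANX 2 and IANX 3 at 1.91 and 2.11 times. Tgfb2 (ENSRNOG00000002418, chromosome 13, 105039853 to 105141030) had the largest fold change of the 3 isoforms. It was at 82.8, 18.1 and 71.4 CPM in IANX 1, 2 and 3, against 9.11, 4.66 and 8.86 CPM in Sham 1, 2 and 3, with a log2 fold change of 2.92 (SE 0.57, edgeR adjusted p = 0.00890). IANX 2 was the lowest IANX sample for all 3 ligands, and for Tgfb2 the gap was widest, with IANX 1 and IANX 3 at 10.97 and 9.46 times the Sham mean and IANX 2 at 2.40 times. In IANX 2 alone against Sham, the log2 fold changes of Tgfb1, Tgfb2 and Tgfb3 were 1.18, 1.27 and 0.94. Tgfb3 did not pass without Sham 1, 2 or 3 (edgeR adjusted p of 0.0732, 0.0918 and 0.0601) nor Tgfb2 without Sham 2 (0.0516), and the log2 fold change of Tgfb3 was 1.0 without IANX 1.

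**Figure D2:**
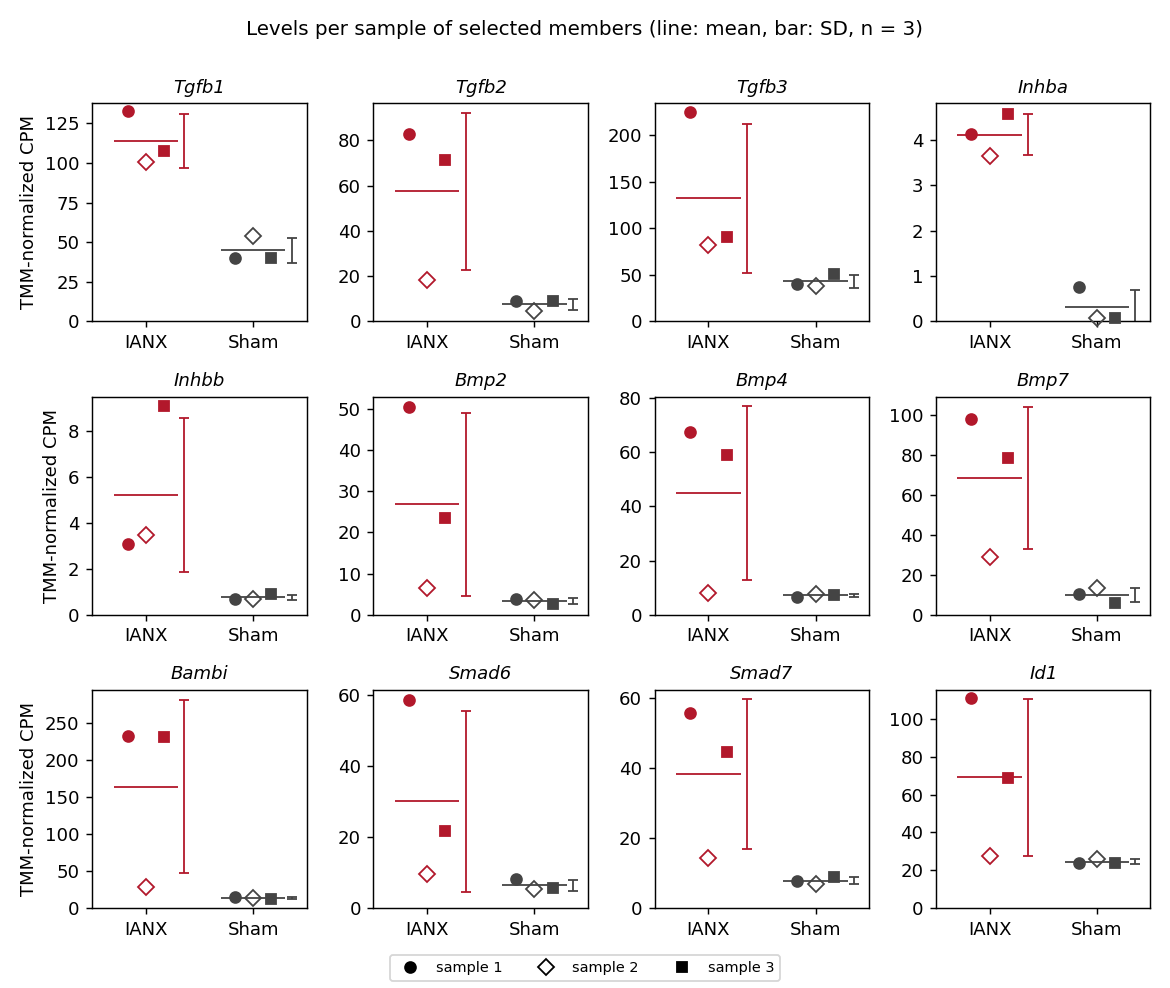
TMM-normalized CPM (y axis, linear and from 0) of 12 members in IANX (left, red) and Sham (right, grey) nerves, with sample 2 of each group as an open diamond, the group mean as a line and its SD as a bar (n = 3, bars end at 0). The IANX samples of Tgfb1 and Inhba lie close together above Sham, while for Tgfb2, Bmp4, Bambi, Smad6, Smad7 and Id1 the diamond of IANX 2 lies below IANX 1 and IANX 3 and nearer to the Sham samples than IANX 1 does.

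Levels of different genes were compared per transcript length, in the FPKM of the deposited table. The 3 TGF-β ligands summed to 162, 82.6 and 98.3 FPKM in IANX 1, 2 and 3, against 36.5, 41.3 and 40.4 FPKM in Sham 1, 2 and 3, with no overlap between the groups. Tgfb1 and Tgfb3 made up most of the sum in both groups. Tgfb1 took 47.9% ± 10.02 of it in IANX and 53.5% ± 7.74 in Sham, and Tgfb3 41.1% ± 9.09 and 42.0% ± 6.38 (SD, n = 3). The share of Tgfb2 was 11.5%, 5.09% and 16.3% in IANX 1, 2 and 3 and 5.83%, 2.66% and 5.10% in Sham 1, 2 and 3. The groups overlapped for each share, with two-sided exact permutation p = 0.5 for Tgfb1, 0.3 for Tgfb2 and 0.9 for Tgfb3. Since 3 samples against 3 allow no p below 0.1, this test could not have passed 0.05 and does not show whether the shares differed. The sum of the 6 BMP genes from Bmp2 to Bmp7 was 105, 30.7 and 86.3 FPKM in IANX 1, 2 and 3, against 20.7, 19.1 and 15.9 FPKM in Sham 1, 2 and 3. IANX 2 was nearer to the Sham samples than to the other IANX samples in this sum. Bmp2, Bmp4 and Bmp7 together took 88.2%, 65.5% and 82.6% of the BMP sum in IANX 1, 2 and 3 and 45.3%, 59.7% and 45.0% in Sham 1, 2 and 3.

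**Figure D3:**
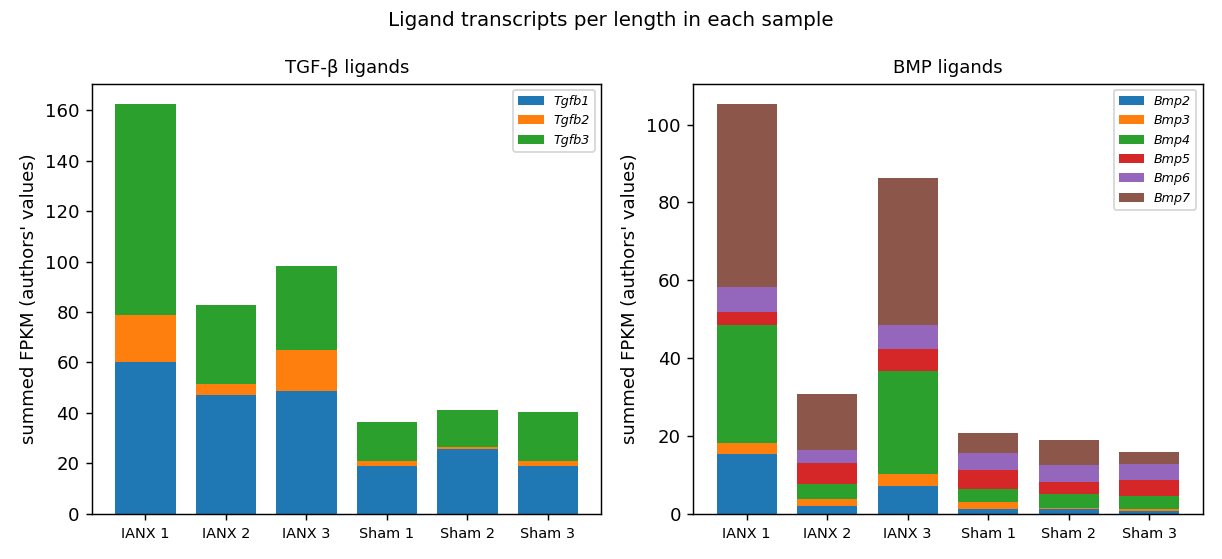
Stacked FPKM (y axis, from 0) of the TGF-β ligand genes (left) and of Bmp2 to Bmp7 (right) in each of the 6 samples, IANX before Sham. Each IANX bar of the TGF-β ligands, from 82.6 to 162 FPKM, is above every Sham bar, and Bmp4 and Bmp7 make up most of the BMP bars of IANX 1 and IANX 3.

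Of the 4 genes of the latent TGF-β binding protein family, Ltbp1 and Ltbp2 rose. Ltbp1, which anchors latent TGF-β in the matrix, was at 83.5, 106 and 66.0 CPM in IANX 1, 2 and 3, against 42.9, 40.7 and 32.4 CPM in Sham 1, 2 and 3, with a log2 fold change of 1.14 (SE 0.21, edgeR adjusted p = 0.00764). Unlike most members that rose, it was highest in IANX 2. Ltbp2, which is bound to microfibrils and does not bind latent TGF-β itself, was at 48.3, 24.5 and 67.9 CPM in IANX 1, 2 and 3, against 10.6, 14.7 and 13.8 CPM in Sham 1, 2 and 3, with a log2 fold change of 1.85 (SE 0.36, edgeR adjusted p = 0.00919). Both passed without each sample in turn, with adjusted p of up to 0.0469 for Ltbp1 and 0.0438 for Ltbp2 (edgeR). By FPKM, Ltbp3 was the most abundant of the family in both groups, at 51.1 ± 9.44 FPKM in IANX and 43.2 ± 3.91 FPKM in Sham (SD, n = 3). It was at 276, 186 and 225 CPM in IANX, against 168, 197 and 197 CPM in Sham (edgeR adjusted p = 0.269), and its log2 fold change was 0.29, or -0.01 with IANX 2 alone. Ltbp4 was at 80.0, 121 and 112 CPM in IANX, against 141, 128 and 133 CPM in Sham (edgeR adjusted p = 0.166). Its IANX samples were all below its Sham samples, by less than the test could call, and it passed as lower without IANX 2 (edgeR adjusted p = 0.0397). The log2 fold change of Ltbp4 was -0.36, and 0.09 with library sizes as the only scaling.

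Among 13 further genes that anchor or activate latent TGF-β, a list of integrin subunits, proteases and matrix proteins, 6 were higher and none was called lower, with a median log2 fold change of 0.73. Over all tested genes, 17.8% were higher and 16.6% lower. Thbs1, which encodes thrombospondin 1, an activator of latent TGF-β, was at 89.5, 68.5 and 57.5 CPM in IANX 1, 2 and 3, against 13.5, 7.33 and 8.64 CPM in Sham 1, 2 and 3, with a log2 fold change of 2.87 (SE 0.29, edgeR adjusted p = 0.000865). Fbn2, the microfibril protein fibrillin 2, was at 74.4, 41.8 and 30.4 CPM in IANX, against 8.77, 7.66 and 7.53 CPM in Sham, with a log2 fold change of 2.61 (SE 0.34, edgeR adjusted p = 0.00209). Emilin1, a matrix glycoprotein that binds the TGF-β precursor, was at 229, 122 and 124 CPM in IANX, against 37.4, 35.3 and 44.9 CPM in Sham, with a log2 fold change of 2.01 (SE 0.28, edgeR adjusted p = 0.00263). For these 3 genes, all IANX samples were above all Sham samples, and the log2 fold changes with IANX 2 alone (2.81, 2.39 and 1.65) were close to those of the whole group. Itgb6, the epithelial integrin subunit that activates latent TGF-β, was at 52.8, 2.12 and 108 CPM in IANX 1, 2 and 3, against 0.345, 1.17 and 0 CPM in Sham 1, 2 and 3, with a log2 fold change of 6.79 (SE 1.54, edgeR adjusted p = 0.0147). It was thus high in the 2 samples that held most enamel and epithelial transcripts, where the 8 epithelial markers summed to 1769 and 3948 CPM, and low in IANX 2, where they summed to 37.6 CPM. Sham 1, 2 and 3 held 390.5, 473 and 416 CPM of them, and 6 of the 7 tested ones were higher in IANX, with none at 0 in either group. Cdh1, the marker that did not pass, carried the Sham sums and went the other way, at 129, 19.3 and 319 CPM in IANX, against 372, 447 and 402 CPM in Sham (log2 fold change -1.38, edgeR adjusted p = 0.208). The part of these markers in the result was not tested. Itgb6 did not pass without Sham 1, 2 or 3 (edgeR adjusted p of 0.0660, 0.0571 and 0.0619).

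Both activin subunit genes rose, and did so in every IANX sample. Inhba (ENSRNOG00000014320, chromosome 17, 51898217 to 51912496 of rn6), the βA subunit of activin A, was at 4.13, 3.65 and 4.56 CPM in IANX 1, 2 and 3, against 0.759, 0.0833 and 0.0738 CPM in Sham 1, 2 and 3. The IANX samples lay within 1 CPM of each other, and the fitted change was a log2 fold change of 3.67 (SE 0.76, edgeR adjusted p = 0.0110). The Sham samples held 13 counts in all and the IANX samples 217. Inhbb, the βB subunit, was at 3.06, 3.49 and 9.07 CPM in IANX 1, 2 and 3, against 0.690, 0.666 and 0.886 CPM in Sham 1, 2 and 3, with a log2 fold change of 2.78 (SE 0.54, edgeR adjusted p = 0.00844). Here IANX 3 was the highest sample, and IANX 1 and IANX 2 were close to each other. Inhba was among the members that differed least between IANX 2 and the other IANX samples, with a log2 fold change of 3.51 for IANX 2 alone. The log2 fold change of Inhba was 5.56 without Sham 1, and Inhba did not pass without Sham 2 (edgeR adjusted p = 0.0531). That of Inhbb was 2.11 without IANX 3.

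Of the 10 BMP and growth differentiation factor (GDF) genes, 9 were tested and 4 rose, Bmp2, Bmp4, Bmp7 and Gdf6, all of which are known for roles in the skeleton. Bmp7 (ENSRNOG00000053384, chromosome 3, 170879973 to 170955399 of rn6) was at 98.1, 29.0 and 78.6 CPM in IANX 1, 2 and 3, against 10.3, 13.2 and 6.06 CPM in Sham 1, 2 and 3, with a log2 fold change of 2.80 (SE 0.49, edgeR adjusted p = 0.00592). Bmp4 (ENSRNOG00000009694, chromosome 15, 20776054 to 20822740) was at 67.5, 8.06 and 58.9 CPM in IANX 1, 2 and 3, against 6.63, 7.58 and 7.24 CPM in Sham 1, 2 and 3, with a log2 fold change of 2.65 (SE 0.69, edgeR adjusted p = 0.0233). Bmp2 (ENSRNOG00000021276, chromosome 3, 126335863 to 126346318) was at 50.6, 6.37 and 23.5 CPM in IANX 1, 2 and 3, against 3.73, 3.66 and 2.51 CPM in Sham 1, 2 and 3, with a log2 fold change of 3.02 (SE 0.69, edgeR adjusted p = 0.0153). In all 3 genes IANX 1 and IANX 3 were far above Sham and IANX 2 was lower, and for Bmp4 IANX 2 was only 1.13 times the Sham mean. With IANX 2 alone, the log2 fold change was 0.18 for Bmp4 (edgeR adjusted p = 0.712), 0.96 for Bmp2 (0.133) and 1.57 for Bmp7 (0.0208). In that comparison the spread comes from the Sham samples alone and does not measure variation between injured rats. The tooth markers, at 56082, 1950.1 and 60764 CPM in IANX 1, 2 and 3 and 129 to 876 CPM in Sham, also had a lower sum in IANX 2 than in the other IANX samples, as Amelx and Ambn did. Dspp was nearly level in IANX 2 and IANX 3, and Dmp1 was lowest in IANX 3. The part of the tooth markers in these changes was not tested. Gdf6, a ligand of joint and bone formation, was at 4.41, 1.53 and 7.70 CPM in IANX 1, 2 and 3, against 0.207, 0 and 0.222 CPM in Sham 1, 2 and 3, with a log2 fold change of 4.87 (SE 0.91, edgeR adjusted p = 0.00759). Its level was low throughout, with 236 counts over all IANX samples and 6 over all Sham samples, and all IANX samples were above Sham. Bmp4 did not pass without IANX 1, IANX 3, Sham 1, Sham 2 or Sham 3 (edgeR adjusted p of 0.0513, 0.0609, 0.0852, 0.0964 and 0.0859) nor Bmp2 without Sham 1, 2 or 3 (0.0579, 0.0710 and 0.0706), and the log2 fold changes of Bmp2 without IANX 1 and of Gdf6 without IANX 3 were 2.16 and 4.24.

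The other ligand genes did not pass. Bmp3, which opposes the osteogenic BMPs, was at 15.4, 9.86 and 16.2 CPM in IANX 1, 2 and 3, against 10.4, 2.17 and 2.88 CPM in Sham 1, 2 and 3, with a log2 fold change of 1.42 (SE 0.58, edgeR adjusted p = 0.0956). Sham 1 overlapped the IANX samples. Bmp3 passed with DESeq2 (adjusted p = 0.0438) and without Sham 1 (edgeR adjusted p = 0.0118). Bmp5 was at 10.47, 17.5 and 19.3 CPM in IANX, against 16.3, 9.99 and 12.4 CPM in Sham (edgeR adjusted p = 0.482) and Bmp6 at 10.1, 4.96 and 9.78 CPM in IANX, against 6.42, 6.16 and 6.57 CPM in Sham (0.394). Both groups overlapped for these 2 ligands, and the log2 fold change of Bmp6 was 0.38 over the group and -0.36 with IANX 2 alone. Gdf10, a ligand close to Bmp3, was at 2.09, 10.6 and 8.36 CPM in IANX, against 9.25, 3.5 and 4.87 CPM in Sham (edgeR adjusted p = 0.774), and IANX 1 was its lowest sample. Gdf15, a stress-induced ligand that acts through a receptor of the hindbrain, was at 1.13, 2.07 and 1.304 CPM in IANX, against 0.690, 2.499 and 1.70 CPM in Sham (edgeR adjusted p = 0.894). Its log2 fold change was -0.11, and 0.34 with library sizes only. Gdf5 was below the filter and was not tested, with 7 counts in IANX and 0 in Sham. Its pooled IANX level was 1.77 times a floor of 3 counts set for all Sham samples together. That ratio takes no account of the spread between samples and does not show a difference.

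Of 17 further entries for ligands of the superfamily, 11 fell below the filter on low counts. Of the 6 that were tested, 3 were higher and 1 was lower, beside 17.8% and 16.6% of all tested genes. Bmp8a was at 15.6, 5.61 and 12.4 CPM in IANX, against 2.002, 1.83 and 0.222 CPM in Sham, with a log2 fold change of 3.05 (SE 0.72, edgeR adjusted p = 0.0167). Gdf11, a ligand close to myostatin, was at 58.7, 112 and 43.8 CPM in IANX, against 34.3, 28.2 and 27.2 CPM in Sham, with a log2 fold change of 1.26 (SE 0.34, edgeR adjusted p = 0.0268). It was highest in IANX 2, in contrast to most of the ligands among the members. Gdf1 fell, with 17.1, 22.0 and 16.1 CPM in IANX, against 35.7, 58.0 and 33.8 CPM in Sham, a log2 fold change of -1.21 (SE 0.25, edgeR adjusted p = 0.0113). The third higher gene was Bmp15, an oocyte ligand, at 3.51, 1.85 and 3.02 CPM in IANX, against 0.828, 0.999 and 1.11 CPM in Sham, named after its values were seen. Bmp8a did not pass without Sham 2 (edgeR adjusted p = 0.0646) nor Gdf11 without Sham 1, 2 or 3 (0.0700, 0.112 and 0.106).

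The 11 tested receptor genes had log2 fold changes between -1.06 and 1.3. Tgfbr1 (ALK5, the type I receptor of TGF-β, ENSRNOG00000007036, chromosome 5, 63050758 to 63119635 of rn6) was at 49.8, 55.9 and 71.8 CPM in IANX 1, 2 and 3, against 33.5, 22.3 and 26.0 CPM in Sham 1, 2 and 3. It rose with a log2 fold change of 1.12 (SE 0.21, edgeR adjusted p = 0.00838), to a like extent in IANX 2 (log2 fold change 1.04 alone). Tgfbr2, the type II receptor that binds TGF-β first, was at 111, 125 and 114 CPM in IANX 1, 2 and 3, against 147, 83.2 and 127 CPM in Sham 1, 2 and 3 (edgeR adjusted p = 0.923). The groups overlapped fully, with a log2 fold change of -0.03, or 0.41 with library sizes only. By FPKM, Tgfbr2 was at 41.1 ± 3.43 FPKM in IANX and 43.2 ± 11.7 FPKM in Sham (SD, n = 3) and the betaglycan gene Tgfbr3 at 19.3 ± 8.73 FPKM in IANX and 41.1 ± 2.34 FPKM in Sham. Betaglycan is a co-receptor that presents TGF-β2 and binds inhibin, and Tgfbr3 fell, with 67.0, 169.9 and 118 CPM in IANX 1, 2 and 3, against 255, 228 and 255 CPM in Sham 1, 2 and 3. Every IANX sample was below the lowest Sham sample, IANX 2 least so, and the change was a log2 fold change of -1.06 (SE 0.31, edgeR adjusted p = 0.0370). Acvrl1 (ALK1, the type I receptor of endothelial cells) was at 40.1, 34.5 and 37.6 CPM in IANX, against 42.3, 79.7 and 67.8 CPM in Sham, with a log2 fold change of -0.76 (SE 0.24, edgeR adjusted p = 0.0439). Its lowest Sham sample was only just above the highest IANX sample. Eng, which encodes the endothelial co-receptor endoglin, was at 119, 101 and 109 CPM in IANX, against 81.3, 113 and 81.3 CPM in Sham (edgeR adjusted p = 0.302). The 6 endothelial markers with an entry had a sum of 347, 184 and 257 CPM in IANX 1, 2 and 3, against 212, 202 and 208 CPM in Sham 1, 2 and 3, with 1 of 5 tested ones higher, and Cldn5 was at 0 in all samples. Of other cell types, 9 of the 10 Schwann cell and myelin markers were lower in IANX, with the sums given above. The 6 pericyte and smooth muscle markers had a sum of 549, 345 and 695 CPM in IANX 1, 2 and 3, against 844, 895 and 979 CPM in Sham 1, 2 and 3, with 3 lower and 1, Rgs5, higher (log2 fold change 1.35, edgeR adjusted p = 0.0197). The 4 perineurium markers had a sum of 373, 658 and 643 CPM in IANX 1, 2 and 3, against 2181.8, 2203 and 1859 CPM in Sham 1, 2 and 3, with 2 of 3 tested ones lower. Apart from Cldn5, none of these lists held a gene at 0 in a whole group, and their part in the lower receptor genes was not tested. Tgfbr3 did not pass without IANX 3, Sham 1, Sham 2 or Sham 3 (edgeR adjusted p of 0.10001, 0.10002, 0.0990 and 0.110) nor Acvrl1 without any sample other than Sham 1 (0.0768, 0.0544, 0.105, 0.139 and 0.129 without IANX 1, IANX 2, IANX 3, Sham 2 and Sham 3), and with library sizes only neither passed (log2 fold changes of -0.62 and -0.30).

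Acvr1 (ALK2), a type I receptor that transduces BMP signals, was the other receptor gene that rose. It was at 40.4, 26.4 and 51.0 CPM in IANX 1, 2 and 3, against 17.7, 15.1 and 15.1 CPM in Sham 1, 2 and 3, with a log2 fold change of 1.3 (SE 0.25, edgeR adjusted p = 0.00887). The type I activin receptor gene Acvr1b was at 42.6, 22.8 and 64.0 CPM in IANX 1, 2 and 3, against 35.1, 42.2 and 37.4 CPM in Sham 1, 2 and 3 (edgeR adjusted p = 0.718). IANX 2 was its lowest sample, and with IANX 2 alone Acvr1b had a log2 fold change of -0.74, against 0.17 over the whole group. The type II genes Acvr2a and Acvr2b were at 7.75, 6.86 and 9.13 CPM in IANX, against 12.2, 6.66 and 11.4 CPM in Sham and at 2.26, 1.31 and 1.66 CPM in IANX, against 1.24, 0.750 and 1.62 CPM in Sham (edgeR adjusted p = 0.379 and 0.387). Both were among the least abundant receptor genes per length, and their groups overlapped. The log2 fold change of Acvr2a was -0.35, and 0.09 with library sizes only. The BMP receptor genes Bmpr1a, a type I receptor, and Bmpr2, a type II receptor, were at 55.3, 69.2 and 69.4 CPM in IANX, against 63.4, 33.2 and 49.4 CPM in Sham and at 45.6, 25.3 and 53.0 CPM in IANX, against 27.3, 19.3 and 29.2 CPM in Sham (edgeR adjusted p = 0.228 and 0.102). Neither passed, though Bmpr2 passed without IANX 2 (edgeR adjusted p = 0.00910). Bmpr1b was below the filter, with 26 counts over the IANX samples and 7 over the Sham samples. Of 5 tested further receptor genes, only Cd109, a co-receptor that inhibits TGF-β signaling, passed, at 15.6, 17.6 and 23.3 CPM in IANX, against 4.004, 1.58 and 3.32 CPM in Sham, with a log2 fold change of 2.65 (SE 0.37, edgeR adjusted p = 0.00278).

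Among the Smad genes, the signaling Smads moved by less than 2-fold and in both directions, and the inhibitory Smads by more. Smad4, the partner of all other signaling Smads, was at 53.0, 66.1 and 53.5 CPM in IANX 1, 2 and 3, against 33.0, 20.9 and 32.9 CPM in Sham 1, 2 and 3, with a log2 fold change of 0.99 (SE 0.22, edgeR adjusted p = 0.0130). Smad2, a mediator of TGF-β and activin, was at 47.2, 47.8 and 55.5 CPM in IANX 1, 2 and 3, against 78.8, 77.6 and 73.7 CPM in Sham 1, 2 and 3, with a log2 fold change of -0.61 (SE 0.14, edgeR adjusted p = 0.0140). The Smad2 samples were close together within each group, and IANX 2 alone gave -0.67. Smad3, the other mediator of TGF-β, was at 82.3, 56.4 and 101 CPM in IANX, against 57.9, 50.6 and 61.7 CPM in Sham, and its log2 fold change of 0.49 did not pass (edgeR adjusted p = 0.126). It passed without IANX 2 (edgeR adjusted p = 0.0118), where Smad3 was level with Sham. The BMP mediators Smad1 and Smad5 were at 51.4, 37.4 and 41.4 CPM in IANX, against 28.4, 27.7 and 29.3 CPM in Sham and at 48.8, 33.0 and 53.7 CPM in IANX, against 27.8, 19.7 and 23.9 CPM in Sham. Both rose, Smad1 with a log2 fold change of 0.61 (SE 0.16, edgeR adjusted p = 0.0272) and Smad5 with a log2 fold change of 0.92 (SE 0.23, edgeR adjusted p = 0.0201). Smad9, the remaining BMP mediator, was below the filter, with 7 counts over the IANX samples and 1 over the Sham samples. Smad1 did not pass without IANX 1, IANX 3, Sham 1, Sham 2 or Sham 3 (edgeR adjusted p of 0.0882, 0.0586, 0.0814, 0.0933 and 0.0968), Smad5 without IANX 3, Sham 2 or Sham 3 (0.0626, 0.0837 and 0.0795) and Smad2 without Sham 3 (0.0551) or with library sizes only (0.392, log2 fold change -0.16).

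Both inhibitory Smad genes rose. Smad7, which blocks TGF-β and BMP receptors, was at 55.8, 14.4 and 44.6 CPM in IANX 1, 2 and 3, against 7.73, 6.83 and 8.79 CPM in Sham 1, 2 and 3, with a log2 fold change of 2.29 (SE 0.47, edgeR adjusted p = 0.0103). Smad6, which acts mainly on the BMP side, was at 58.6, 9.59 and 21.8 CPM in IANX 1, 2 and 3, against 8.22, 5.33 and 5.54 CPM in Sham 1, 2 and 3, with a log2 fold change of 2.23 (SE 0.62, edgeR adjusted p = 0.0292). In both genes IANX 1 was highest and IANX 2 lowest of the IANX samples. IANX 2 was at 1.85 times the Sham mean for Smad7 and 1.51 times for Smad6, with log2 fold changes of 0.89 and 0.60 for IANX 2 alone. Without IANX 1, Smad6 had a log2 fold change of 1.29 (edgeR adjusted p = 0.0526). It also did not pass without Sham 1, 2 or 3 (0.0723, 0.121 and 0.106), nor did Smad7 without Sham 2 (0.0591). Of 14 further genes that regulate Smads in the cell, 5 were higher and 1 was lower, beside 17.8% and 16.6% of all tested genes. The Smad corepressor genes Skil and Tgif1 were at 26.4, 22.3 and 30.2 CPM in IANX, against 4.69, 2.58 and 6.72 CPM in Sham and at 23.0, 21.2 and 28.2 CPM in IANX, against 4.63, 4.5 and 4.5 CPM in Sham. They rose, Skil with a log2 fold change of 2.49 (SE 0.35, edgeR adjusted p = 0.00279) and Tgif1 with a log2 fold change of 2.41 (SE 0.21, edgeR adjusted p = 0.000600). Ldlrad4, which keeps Smads from the receptor, rose with a log2 fold change of 1.99 (SE 0.33, edgeR adjusted p = 0.00494). Smurf1, a ubiquitin ligase that marks BMP Smads and receptors for breakdown, fell, with 78.8, 110.4 and 59.6 CPM in IANX, against 238, 283 and 239.6 CPM in Sham and a log2 fold change of -1.61 (SE 0.24, edgeR adjusted p = 0.00359). Nedd4l, a ubiquitin ligase that acts on Smads, and Pmepa1, an inhibitor of Smad signaling, were the other higher genes, named after their values were seen, with log2 fold changes of 1.35 and 1.06 (edgeR adjusted p = 0.00141 and 0.0380). For Skil, Tgif1, Ldlrad4 and Smurf1, IANX 2 alone gave log2 fold changes of 2.26, 2.23, 1.58 and -1.19.

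Of the extracellular inhibitors, Grem1, Nog and Bambi rose while Chrd, Fst and Fstl1 did not pass. Grem1 (ENSRNOG00000026053, chromosome 3, 105203309 to 105214989 of rn6), the BMP antagonist gremlin 1, was at 9.11, 3.81 and 13.1 CPM in IANX 1, 2 and 3, against 0.967, 1.17 and 1.11 CPM in Sham 1, 2 and 3, with a log2 fold change of 3.0 (SE 0.50, edgeR adjusted p = 0.00501). Nog (ENSRNOG00000023683, chromosome 10, 76811759 to 76813386), the BMP antagonist noggin, was at 6.79, 1.85 and 7.70 CPM in IANX 1, 2 and 3, against 0.898, 0.916 and 0.960 CPM in Sham 1, 2 and 3, with a log2 fold change of 2.55 (SE 0.57, edgeR adjusted p = 0.0142). Both were low genes in Sham, near 1 CPM, and all IANX samples were above Sham. Bambi (ENSRNOG00000016066, chromosome 17, 56905112 to 56909992), a decoy receptor without a kinase domain, was at 232, 28.6 and 231 CPM in IANX 1, 2 and 3, against 14.6, 13.8 and 12.04 CPM in Sham 1, 2 and 3, with a log2 fold change of 3.60 (SE 0.72, edgeR adjusted p = 0.00953). Among the 46 members, Bambi had the largest ratio of the mean of IANX 1 and IANX 3 to IANX 2, at 8.10. IANX 2 was itself at 2.12 times the Sham mean. Chrd, the BMP antagonist chordin, was at 17.2, 13.7 and 9.36 CPM in IANX, against 15.7, 24.5 and 21.0 CPM in Sham (log2 fold change -0.60, edgeR adjusted p = 0.132). Fst, the activin-binding protein follistatin, was at 3.68, 4.303 and 3.08 CPM in IANX, against 3.31, 4.16 and 2.66 CPM in Sham (log2 fold change 0.13, edgeR adjusted p = 0.782). The Fst ranges of the groups overlapped almost fully. Fstl1, a secreted glycoprotein related to follistatin, had the highest mean of these genes per length, at 119.9 ± 14.6 FPKM in IANX and 89.3 ± 20.9 FPKM in Sham (SD, n = 3). In IANX 1 and IANX 3, Bambi was above it, at 154 and 153 FPKM, against 129 and 103 FPKM for Fstl1. By CPM, Fstl1 was at 415, 398 and 333 CPM in IANX, against 353, 238 and 240.3 CPM in Sham (edgeR adjusted p = 0.129). The FPKM of Grem1, Nog and Chrd summed to 11.5, 6.35 and 10.7 FPKM in IANX 1, 2 and 3, against 5.646, 8.51 and 7.36 FPKM in Sham 1, 2 and 3. The groups overlapped in this sum, and Chrd took most of it in every Sham sample. Nog did not pass without Sham 1, 2 or 3 (edgeR adjusted p of 0.0578, 0.0659 and 0.0624) nor Bambi without Sham 2 or Sham 3 (0.0565 and 0.0505).

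Of 12 tested further secreted antagonists, 3 were higher and 3 were lower, beside 17.8% and 16.6% of all tested genes. Fstl3, a follistatin relative that binds activin, fell, with 8.77, 15.5 and 14.6 CPM in IANX, against 54.8, 68.4 and 80.9 CPM in Sham and a log2 fold change of -2.39 (SE 0.26, edgeR adjusted p = 0.00119). Nbl1, a BMP antagonist of the same family as gremlin, also fell, with 191, 287 and 153 CPM in IANX, against 489, 549 and 471 CPM in Sham and a log2 fold change of -1.26 (SE 0.25, edgeR adjusted p = 0.00984). The groups did not overlap for either gene. Among the called genes outside the naming rule, named after their values were seen, Sost, the sclerostin gene of bone that is also on the osteoblast list, was at 0.623, 1.85 and 0.770 CPM in IANX, against 0, 0 and 0 CPM in Sham, and Sostdc1, a relative of sclerostin, was lower by a log2 fold change of -0.66 (SE 0.21, edgeR adjusted p = 0.0475). Crim1, a membrane protein that binds BMPs, was at 29.8, 11.3 and 33.2 CPM in IANX, against 11.3, 4.33 and 10.49 CPM in Sham, with a log2 fold change of 1.5 (SE 0.49, edgeR adjusted p = 0.0499), and it did not pass without any sample other than IANX 2 (edgeR adjusted p of 0.106, 0.139, 0.0888, 0.143 and 0.111).

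The 250 bases before the gene start were searched in RefSeq promoters of build GRCr8, on both strands, for letters that Smads are known to bind. Of the 49 members, 40 had an entry and 9 (Bmp2, Bmp7, Gdf5, Gdf6, Acvrl1, Acvr1, Bmpr1b, Smad6 and Fst) had none there. GGCGCC, the GC-rich element bound by Smads, was found in 13 of the 40 (32.5%) and in 8.69% of all 33469 promoters. Members that rose held it in 6 of 18 cases (Inhbb, Tgfbr1, Smad7, Grem1, Nog and Bambi) and the other members in 7 of 22. The members' promoters were also richer in G and C, with a median of 65.2% against 51.2% over all promoters. CAGAC, the Smad box, was in 17.5% of the members' promoters and 42.9% of all, and the palindrome GTCTAGAC was in none of the members' and 0.173% of all. The other strings searched were GGAGCC (16 of the 40 members and 23.0% of all), TGCCG (13 and 21.1%), CAGACA, which lies within matches of CAGAC (2 and 17.2%), TGGCGCC, which holds GGCGCC (2 and 2.98%) and GGCGCC followed 5 bases on by GTCT, which was in none of the members' and 0.0418% of all. A match is a description of the letters and not a binding site. The promoters of an activin subunit, a receptor and the 2 secreted antagonists that rose and hold GGCGCC are shown, 5′ to 3′ with the match in capitals.
Inhbb (chr13:33089374-33089623, - strand): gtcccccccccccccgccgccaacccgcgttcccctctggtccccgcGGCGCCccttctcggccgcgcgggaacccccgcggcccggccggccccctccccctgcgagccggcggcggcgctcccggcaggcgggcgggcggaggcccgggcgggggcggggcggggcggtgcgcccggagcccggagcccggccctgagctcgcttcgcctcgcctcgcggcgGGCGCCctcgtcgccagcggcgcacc
Tgfbr1 (chr5:66449148-66449397, + strand): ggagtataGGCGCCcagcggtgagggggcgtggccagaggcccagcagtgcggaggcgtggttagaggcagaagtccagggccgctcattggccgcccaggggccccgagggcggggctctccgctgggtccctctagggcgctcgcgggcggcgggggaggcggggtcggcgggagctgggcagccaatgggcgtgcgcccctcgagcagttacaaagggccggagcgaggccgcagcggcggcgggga
Grem1 (chr3:120978320-120978569, - strand): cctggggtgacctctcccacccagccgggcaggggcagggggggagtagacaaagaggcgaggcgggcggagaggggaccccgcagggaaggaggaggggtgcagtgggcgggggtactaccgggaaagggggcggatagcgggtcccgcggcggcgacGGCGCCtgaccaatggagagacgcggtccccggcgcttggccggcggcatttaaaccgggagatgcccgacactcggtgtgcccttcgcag
Nog (chr10:74627502-74627751, - strand): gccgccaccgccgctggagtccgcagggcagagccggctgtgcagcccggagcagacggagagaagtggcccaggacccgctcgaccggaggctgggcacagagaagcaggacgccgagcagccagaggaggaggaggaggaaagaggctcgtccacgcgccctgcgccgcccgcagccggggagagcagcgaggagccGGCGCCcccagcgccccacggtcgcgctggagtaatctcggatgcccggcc
In these sequences the matches began 203 and 26 bases before the start of Inhbb, 242 before that of Tgfbr1, 91 before that of Grem1 and 51 before that of Nog.

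Of the 4 target genes among the members, Id1 and Id3 rose. The Id genes encode inhibitors of differentiation that bind helix-loop-helix factors and are induced by BMPs. Id1 (ENSRNOG00000021750, chromosome 3, 148215540 to 148216718 of rn6) was at 111, 27.6 and 69.0 CPM in IANX 1, 2 and 3, against 23.7, 25.9 and 24.1 CPM in Sham 1, 2 and 3, with a log2 fold change of 1.49 (SE 0.44, edgeR adjusted p = 0.0361). Id3 (ENSRNOG00000026124, chromosome 5, 154489590 to 154491223) was at 391, 155 and 177 CPM in IANX 1, 2 and 3, against 75.6, 94.4 and 93.2 CPM in Sham 1, 2 and 3, with a log2 fold change of 1.46 (SE 0.36, edgeR adjusted p = 0.0194). Per length, Id3 had the highest mean of the target genes in IANX, at 234 ± 125 FPKM, and was at 88.1 ± 10.8 FPKM in Sham (SD, n = 3). Tgfbi, described below, had the highest mean in Sham, at 119 ± 10.7 FPKM, and was at 148 ± 79.3 FPKM in IANX (SD, n = 3). Id2 was at 57.6, 32.2 and 48.8 CPM in IANX, against 38.6, 33.4 and 32.6 CPM in Sham and did not pass (log2 fold change 0.41, edgeR adjusted p = 0.199). As for Bmp2, Bmp4 and Bmp7, IANX 2 was the lowest IANX sample for all 3 Id genes, with log2 fold changes of 0.18, -0.10 and 0.83 for Id1, Id2 and Id3 in IANX 2 alone, and for Id2 it was lower than Sham 1, 2 and 3. Tgfbi, a matrix protein induced by TGF-β, had the opposite order, at 289.8, 638 and 274 CPM in IANX 1, 2 and 3, against 311, 343 and 291 CPM in Sham 1, 2 and 3. IANX 2 was its highest sample. IANX 1 and IANX 3 were below Sham 1, 2 and 3, IANX 1 only just below Sham 3, and the group did not pass (log2 fold change 0.35, edgeR adjusted p = 0.449). With IANX 2 alone, the log2 fold change of Tgfbi was 1.03. The macrophage markers were also highest in IANX 2, at 794 CPM against 354 and 323 CPM in the other IANX samples. So were the sums of the osteoclast markers (1160 CPM, against 352 and 572 CPM), the Schwann cell and myelin markers and the perineurium markers. The sums of the other marker lists were highest in IANX 1 or IANX 3, and the part of these lists was not tested. Id1 did not pass without IANX 1, IANX 3, Sham 1, Sham 2 or Sham 3 (edgeR adjusted p of 0.0814, 0.0765, 0.110, 0.120 and 0.115) nor Id3 without Sham 1, 2 or 3 (0.0785, 0.0777 and 0.0734).

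Further genes known to respond to either arm were counted from lists. Over all tested genes, 17.8% were higher and 16.6% lower, with a median log2 fold change of 0.08. Of 18 tested TGF-β response genes, 11 were higher and none was called lower, with a median log2 fold change of 1.0, or 1.38 with IANX 2 alone. Postn, the matrix protein periostin, was at 511, 1030.0 and 951 CPM in IANX 1, 2 and 3, against 68.6, 33.8 and 72.8 CPM in Sham 1, 2 and 3, with a log2 fold change of 3.83 (SE 0.41, edgeR adjusted p = 0.00109). It was highest in IANX 2. Snai2, a factor of mesenchymal transition, and Cdkn1a, the cell cycle inhibitor p21, had log2 fold changes of 2.18 and 2.21 (edgeR adjusted p = 0.00536 and 0.00509). Of 9 tested BMP response genes, 6 were higher and 1 was lower, with a median of 2.61, or 0.57 with IANX 2 alone. Msx2, a homeobox gene of tooth and skull, was at 169.5, 4.52 and 122 CPM in IANX 1, 2 and 3, against 5.11, 4.25 and 2.51 CPM in Sham 1, 2 and 3, with a log2 fold change of 4.64 (SE 1.13, edgeR adjusted p = 0.0191). Dlx5, a homeobox gene of the jaw and of osteoblasts, was at 65.1, 9.26 and 48.7 CPM in IANX 1, 2 and 3, against 6.08, 5.33 and 7.38 CPM in Sham 1, 2 and 3, with a log2 fold change of 2.71 (SE 0.64, edgeR adjusted p = 0.0168). Both were near the Sham level in IANX 2, as Bmp4 and Id1 were. Sp7, the osteoblast factor osterix, and Hey1, a target shared with Notch, had log2 fold changes of 3.44 and 2.98 (edgeR adjusted p = 0.0164 and 0.0187). Runx2, named after its values were seen, also rose, with a log2 fold change of 2.61 (edgeR adjusted p = 0.00104). It was at 84.2, 88.0 and 107 CPM in IANX 1, 2 and 3, against 21.7, 11.3 and 12.5 CPM in Sham 1, 2 and 3. With IANX 2 alone, Runx2, Sp7 and Hey1 had log2 fold changes of 2.54, 2.25 and 1.88, against 0.20 and 0.57 for Msx2 and Dlx5. The lower gene was Gata2, a hematopoietic factor, named after its values were seen, at -0.89 (edgeR adjusted p = 0.0313). Runx2 and Sp7 of this list are also among the osteoblast markers. These 6 markers had a sum of 2453, 1256 and 1033 CPM in IANX 1, 2 and 3, against 1118, 376 and 417 CPM in Sham 1, 2 and 3, with 5 higher and Sost at 0 in Sham. Bglap, the marker that did not pass, was at 1674, 497 and 238 CPM in IANX, against 964, 259 and 284 CPM in Sham (log2 fold change 0.68, edgeR adjusted p = 0.528). The 2 lists were not compared with a test, and the part of tooth and bone transcripts was not tested. Msx2, Dlx5 and Hey1 did not pass without Sham 1, 2 or 3 (edgeR adjusted p of 0.0679, 0.0905 and 0.0818, of 0.0668, 0.0847 and 0.0628 and of 0.0623, 0.0918 and 0.0757) nor Sp7 without Sham 2 or 3 (0.0768 and 0.0663).

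The members thus differed in how far the increase was shared by the 3 injured nerves. IANX 2 was the lowest IANX sample for 19 of the 23 members that rose (82.6%), against 57.9% of the 2734 genes that rose. The summed tooth markers, carried by the enamel genes, were also lowest in IANX 2 of the IANX samples, while Dspp was nearly level in IANX 2 and IANX 3 and Dmp1 was lowest in IANX 3. The part of the tooth markers in the levels of these members, the inhibitory Smads and antagonists included, was not tested. Ltbp1 and Smad4 were highest in IANX 2, and Inhbb and Tgfbr1 were in between. With IANX 2 alone against the Sham samples, 14 members were higher and 2 lower, against 11.5% and 12.0% of all genes tested there, and 13 of the 23 members that rose over the whole group were among the 14. They were Tgfb1, Tgfb2, Tgfb3, Ltbp1, Ltbp2, Inhba, Inhbb, Bmp7, Tgfbr1, Smad4, Grem1, Bambi and Id3. The 10 that did not pass there were Bmp2, Bmp4, Gdf6, Acvr1, Smad1, Smad5, Smad6, Smad7, Nog and Id1. Without IANX 2, where both remaining IANX samples were rich in enamel transcripts, 26 members were higher and 3 lower, against 23.1% and 21.8% of all genes tested there, and all 23 that rose were among the 26. These comparisons share their Sham samples, and each reuses IANX samples of the whole group, so that agreement with the whole group is partly built in. With IANX 2 alone, the spread comes from the Sham samples only and does not measure variation between injured rats. The mean of IANX 1 and IANX 3 was 8.10, 7.84, 5.81 and 4.26 times the level of IANX 2 for Bambi, Bmp4, Bmp2 and Tgfb2. It was 1.20, 1.19, 1.09 and 0.806 times for Tgfb1, Inhba, Tgfbr1 and Smad4. Only 10 of the 26 called members passed without each of the 6 samples in turn, namely Tgfb1, Ltbp1, Ltbp2, Inhbb, Bmp7, Gdf6, Tgfbr1, Acvr1, Smad4 and Grem1. On rn6, Ltbp3, Acvr1b and Bmpr2 overlap a gene on the opposite strand, Tgfb2 a small nucleolar RNA on the opposite strand, and Bmp6 and Acvr2b a gene on the same strand. The strand setting of the counts is not given in the sources used here, so that the values of these 6 genes may hold reads of the other gene.

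**Figure D4:**
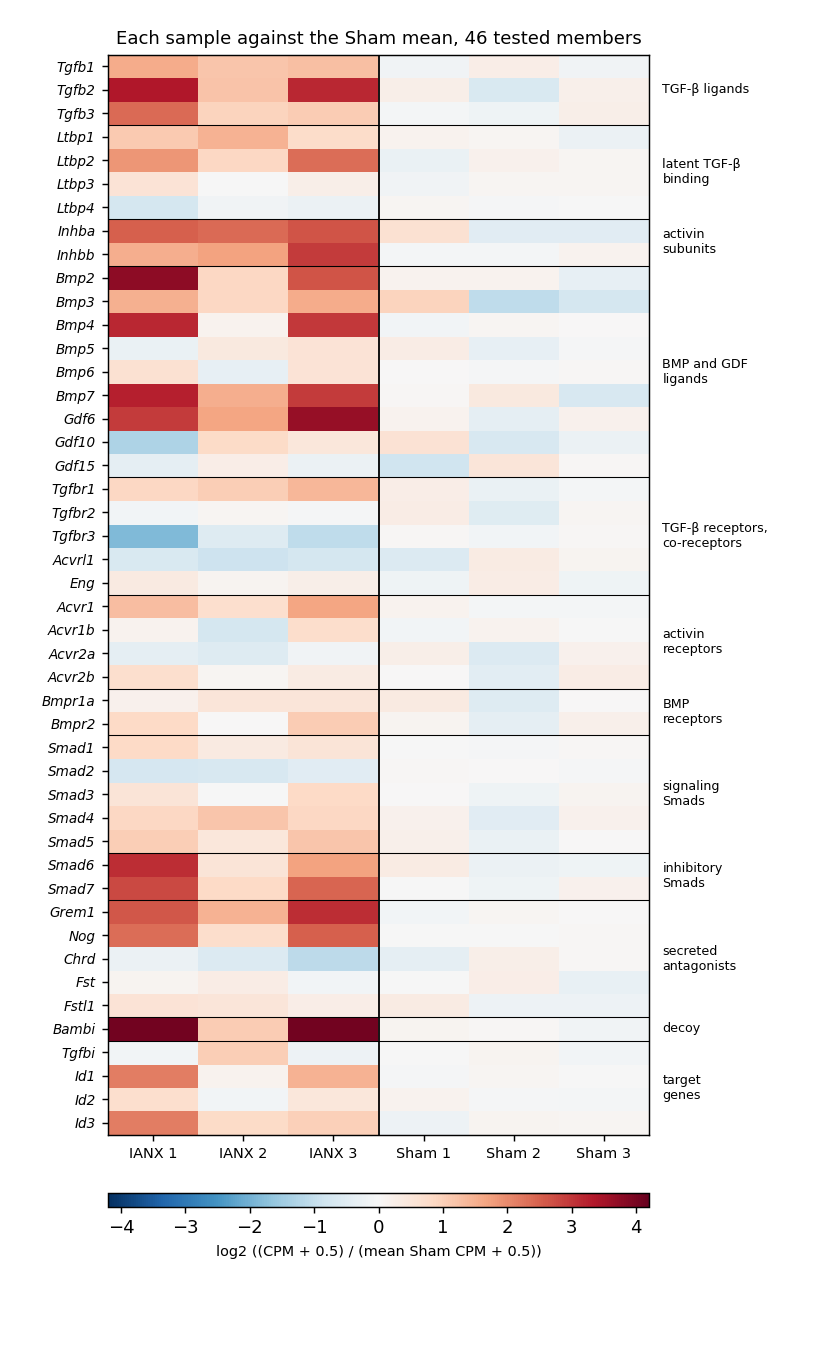
Log2 ratio of each sample's CPM to the mean Sham CPM, with 0.5 CPM added to both, for the 46 tested members (down the page, by role) in the 6 samples (across), red above and blue below the Sham mean. IANX 1 and IANX 3 are darker red than IANX 2 for Tgfb2, Bmp2, Bmp4, Bmp7, Smad6, Smad7 and Bambi, while Inhba and Inhbb are red in all 3.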

How the data were processed

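Poly-A RNA of 6 nerves was sequenced by the study as 150-base read pairs. The authors aligned the reads to rn6 with HISAT2 2.0.5, built transcripts with StringTie 1.3.3b and obtained read counts for each gene from featureCounts 1.5.0-p3. The annotation release and the strand setting are not given in the sources used here. The deposited table holds raw counts for 34106 genes in each sample and the authors' FPKM values. These FPKM differ from counts divided by gene length and total count alone, and the study's methods do not describe how they were scaled. It also holds the authors' group means, fold changes and p-values from DESeq2 1.20.0, which were not used. The sources name 3 biological replicates per group.

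The counts were tested with edgeR 4.0.16 in R 4.3.3 (filterByExpr, TMM scaling, condition as the only term, quasi-likelihood test, two-sided, Benjamini-Hochberg adjustment over 15374 genes), which was checked on simulated data. CPM are TMM-normalized. A standard error is the size of the log2 fold change divided by the square root of its F value. FPKM were used for levels between genes and, in limma 3.58.1 on log2(FPKM + 1) and log2(FPKM + 0.1), as alternatives, with genes at 1 FPKM or more in at least 3 samples. DESeq2 1.42.0, other scalings, no filter, a replicate block, IANX 2 alone and each sample left out were also tried. Total counts of 13988750 to 17105402 per sample make values under 1 CPM rest on a handful of reads. Members and gene lists were chosen with earlier results of these data known. Values per sample are given for members that were called, lost a call or turned direction, and for the most abundant of each role, and up to 4 called genes per further list were named by size of change at 5 CPM or more, of which 2 are not reported here. Promoters are from RefSeq on GRCr8.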

Additional observations from a re-analysis of the deposited data

How the results depend on the processing

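Over the 46 tested members, 23 were higher and 3 lower with edgeR. IANX 2 alone against Sham gave 14 higher, limma on log2(FPKM + 1) without a filter 12 higher and 1 lower, and library sizes as the only scaling 31 higher and 0 lower. Leaving out each sample in turn gave 10 to 26 higher and 0 to 3 lower members. Over all tested genes, 2734 were higher and 2550 lower, against 5919 and 1468 with library sizes only and 1609 higher with limma without a filter. Leaving out each sample in turn gave 961 to 3712 higher and 1494 to 3504 lower genes. Fewer samples leave less information on the spread, and the cause of the other shifts was not tested. Correlations of same-numbered deviations from the group means were 0.086, -0.014 and 0.075, against -0.128 to 0.047 for differently numbered samples. With 3 samples per group, these values cannot decide whether the replicate numbers pair the samples. With the replicate number as a block, 22 members were higher and 2 lower, of which 20 and 2 were called without it, and 2175 genes were higher and 2299 lower. Over the called members and the other named genes, 612 fits kept the call, 132 kept the direction but lost it and 0 reversed. Depth limits the members near 1 CPM, such as Gdf15 and Acvr2b, where a difference may not be detectable.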
